A study of Mus musculus with 9 samples.

Results

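Collagens and the proteins that bind them make up most of the scaffold around the cells of the heart. Their genes were followed in the ventricles of fetal mice that carried both, 1 or no working copies of Esrrg, which encodes the estrogen-related receptor gamma (ERRg), a nuclear receptor abundant in heart muscle. The members are all genes named on the array with a symbol of the form Col, number, a, number, together with the proteoglycans lumican, decorin, biglycan, fibromodulin, osteoglycin, Prelp and asporin, and with periostin, fibronectin, fibrillin 2, elastin, Sparc and versican. They came to 55 of the 18193 genes that probe sets of the array named, 42 collagens and 13 others, covered by 118 probe sets. For fibrillin 1 no probe set naming it alone was matched, and it was not analysed here. The brightest probe set stood for each gene.

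Each of 9 arrays held RNA from cardiac ventricles of male fetuses at E18.5, just before birth. Per the labels there were 3 biological replicates each of wild-type (ERRg +/+, WT), heterozygous (ERRg +/-, HET) and knockout (ERRg -/-, KO) hearts. The labels name no Cre driver or strain, and they describe the knockout only by its genotype. Each source label begins with the number 3, which can be read as 3 pooled fetuses or as the group size, so how many hearts an array stands for is not known. The comparisons ask how ventricular gene expression differs when 1 or both copies of the receptor gene are missing.

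Fibrillar collagens (types I, III and V in the heart) build the fibres that carry tension, and they are made mainly by fibroblasts. Type IV collagens form the mesh of basement membranes around muscle and endothelial cells, and type VI collagen links that mesh to the fibres. Small leucine-rich proteoglycans sit on fibrils and regulate their width and spacing, while versican fills the loose matrix of the developing heart and valves. Values are MAS5 signals, a linear brightness of the probe set, and differences are on the scale log2(signal + 16), so that dim genes show less than their full change. A gene was called when limma's Benjamini-Hochberg adjusted p over all 13028 genes tested was under 0.05. Fewer cells of a type and less RNA per cell cannot be told apart in such tissue samples, and the p-values reflect scatter among arrays only.

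Promoter windows from RefSeq (build GRCm38.p6) are shown for versican, which was called, for the neighbouring basement membrane genes Col4a5 and Col4a6, which differ below between probe sets and arrays, and for Col11a1, the only member whose window held the element that ERR receptors bind. Each is the 250 bases before the transcript start, 5′ to 3′ on the gene's strand. Capitals mark the CCAAT box in the first pair, in versican as its reverse complement, and the receptor element, also reversed, in Col11a1. Col11a1 also holds a reversed CCAAT box just before that element, left in lower case. Col4a6 has none of these letters in its window.
Vcan, chr13:89742513-89742762, minus strand: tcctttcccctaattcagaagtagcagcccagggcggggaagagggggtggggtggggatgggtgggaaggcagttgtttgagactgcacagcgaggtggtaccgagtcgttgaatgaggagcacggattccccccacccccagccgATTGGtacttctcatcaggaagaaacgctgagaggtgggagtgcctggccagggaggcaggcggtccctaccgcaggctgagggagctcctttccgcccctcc
Col4a5, chrX:141475169-141475418, plus strand: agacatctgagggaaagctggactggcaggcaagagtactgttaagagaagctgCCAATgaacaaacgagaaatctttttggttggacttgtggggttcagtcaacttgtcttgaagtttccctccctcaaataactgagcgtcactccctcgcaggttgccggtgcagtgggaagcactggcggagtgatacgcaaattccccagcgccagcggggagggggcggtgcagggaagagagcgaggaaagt
Col4a6, chrX:141474077-141474326, minus strand: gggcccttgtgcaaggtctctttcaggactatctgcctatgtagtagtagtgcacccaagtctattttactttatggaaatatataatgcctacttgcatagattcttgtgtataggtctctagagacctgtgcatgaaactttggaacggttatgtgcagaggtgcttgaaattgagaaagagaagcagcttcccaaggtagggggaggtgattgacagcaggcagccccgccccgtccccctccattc
Col11a1, chr3:114030290-114030539, plus strand: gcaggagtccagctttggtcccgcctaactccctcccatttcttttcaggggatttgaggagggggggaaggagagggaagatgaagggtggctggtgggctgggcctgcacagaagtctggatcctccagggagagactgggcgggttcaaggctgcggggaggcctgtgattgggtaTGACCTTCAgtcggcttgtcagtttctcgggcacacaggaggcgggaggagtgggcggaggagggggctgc

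Windows of 300 bases, 250 before to 50 after the start, matched 41 of the 55 members, and some members have several starts, giving 45 windows. The receptor element, searched as TNAAGGTCA on both strands, was found in 1 of these (2.22%) and in 1.28% of all 32851 windows of that length. CCAAT was found in 40% of the member windows and 37.4% of all, and TATAAA in 17.8% and 13.6%. None of these motifs contains another. The matches are descriptions of letters and not of binding, and 14 members, Lum among them, were not matched to a window.

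Esrrg itself stepped down with the genotype, which checks the labels. Its brightest probe set read 281, 213 and 206 in WT, 162, 164 and 162 in HET, against 58.3, 58.1 and 39.3 in KO, with no overlap between genotypes. The KO minus WT difference was -1.88 ± 0.19 (log2, limma standard error, adjusted p = 0.00018), while its exact permutation p (two-sided, 3 arrays a side) was 0.1, which such a design cannot go below. The labels do not say whether that probe set lies in the deleted stretch. The arrays also fall into 2 sets by the ratio of the spiked-in thr and dap control RNAs, a division chosen with earlier results in view. The first set holds the 3 WT arrays and HET replicate 1, and the second holds HET replicates 2 and 3 and all KO arrays, so set and genotype are almost confounded, and each KO minus WT value with the set as a block rests on the single array HET 1. Over all genes, 211 were called between KO and WT (96 higher, 115 lower; 25 higher and 76 lower after shifting the arrays to 1 median), 0 between HET and WT (1499 at an unadjusted limma p under 0.05) and 2 between KO and HET. Cardiomyocyte markers were bright on every array, with summed signals of 174505 to 208621, whereas Afp, Apoa1, Sftpb and Scgb1a1 of the liver and lung list lay under the filter on low signals. Alb and Sftpc of that list passed the filter, with no signal above 66.3 and 56.1. Their summed signal was 122 on HET replicate 1 and 52.8 and 72.7 on HET replicates 2 and 3. It was 48.8 to 52.5 in WT and 60.6 to 78.5 in KO.

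Of the 55 members, 45 passed the filter on low signals and were tested. The other 10 were Col2a1, Col24a1, Col4a3, Col9a2, Col19a1, Col9a3, Col6a5, Col10a1, Col25a1 and Col17a1, with single signals between 0.842 and 60.04. Several of these are best known from cartilage or skin. Between KO and WT, 2 of the 45 members were called, Vcan and Lum, both higher in KO. That is 4.44% of the members, where 1.62% of all genes tested were called, 0.737% higher and 0.883% lower. At an unadjusted p under 0.05 stood 10 members, 9 of them higher in KO, or 22.2% beside 17.2% of all genes. The 3 KO arrays and the 3 WT arrays did not overlap for 14 members, 12 higher and 2 lower, or 31.1% beside 25.0% of all genes (11.1% higher, 13.9% lower). In all, 31 of the 45 lay above 0 (68.9%, beside 48.4% of all genes), with a median difference of 0.06, and the median of all genes was -0.01.

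**Figure D1:**
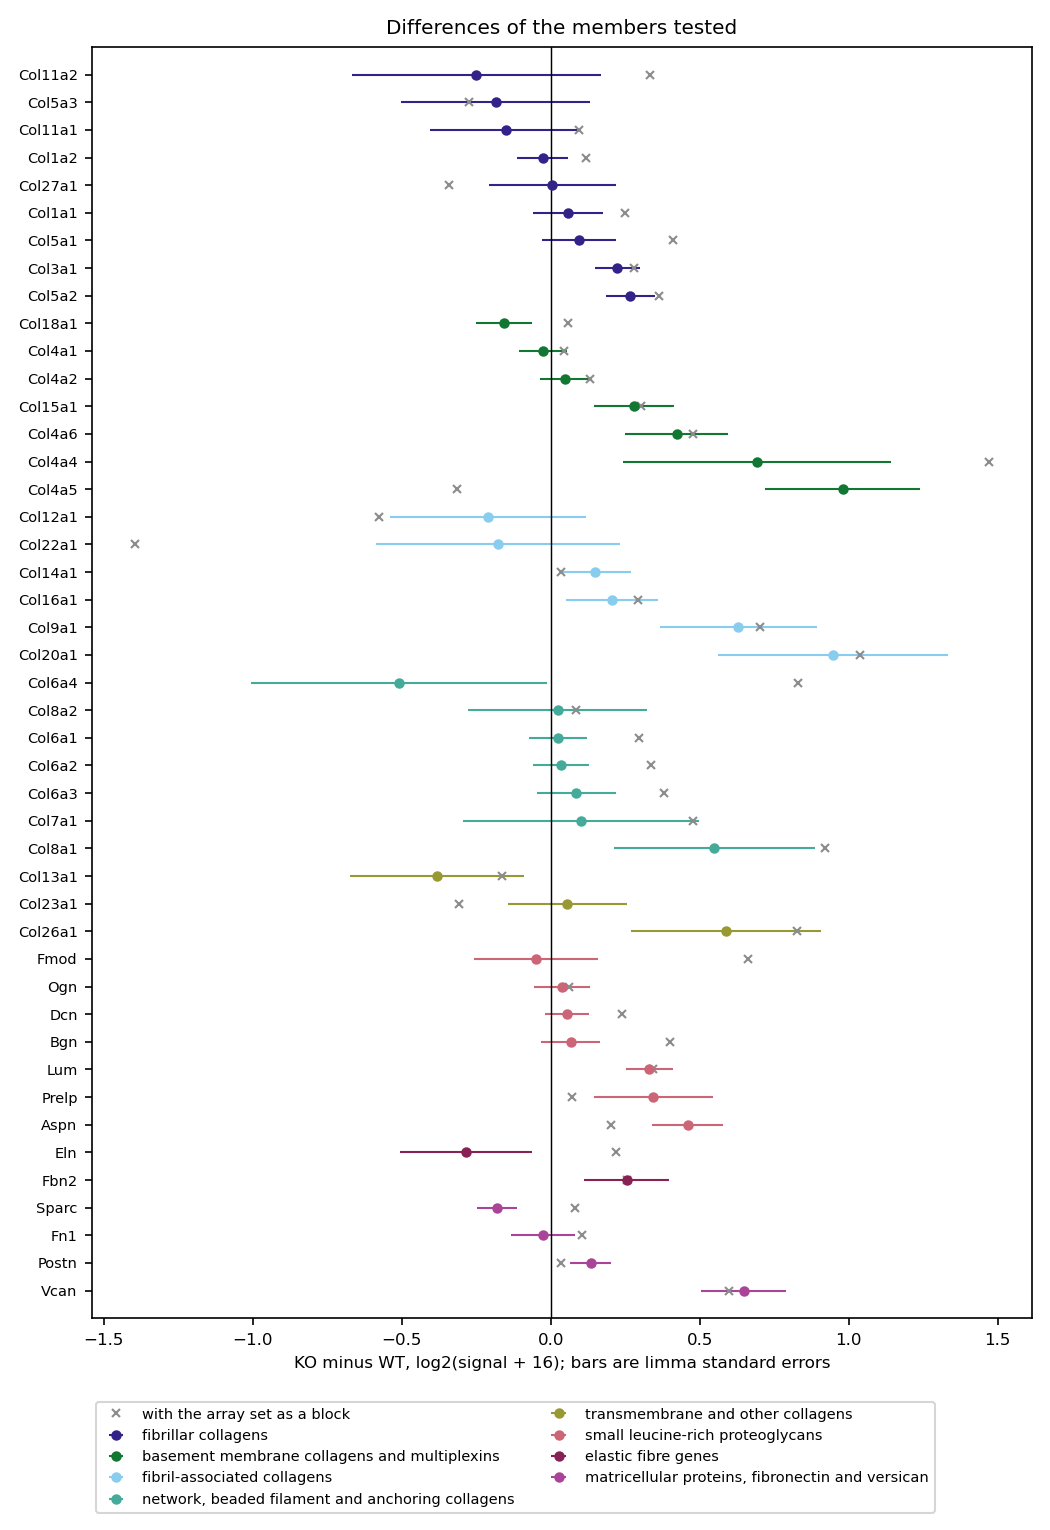
KO minus WT difference (log2 of signal + 16) of the 45 tested members, ordered by role, with limma standard errors (3 arrays a genotype), and grey crosses for the value with the array set as a block. Vcan at 0.65 and Lum at 0.33 were the 2 called, Col4a5 at 0.98 moved to -0.32 with the block, and Col1a1, Col1a2, Col4a1, Col4a2 and Dcn lay close to 0.

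Versican, the large chondroitin sulfate proteoglycan of provisional matrix, rose in KO. Its signals were 299, 258 and 231 in WT, 309, 362 and 283 in HET, against 361, 447 and 453 in KO. Every KO array was above every WT array, while KO replicate 1 lay just below HET replicate 2. The WT mean was 263 ± 34.6 and the KO mean 420 ± 51.7 (SD, n = 3 arrays each). The KO minus WT difference was 0.65 ± 0.14 (limma, adjusted p = 0.0371), the HET minus WT difference 0.26 ± 0.14 (adjusted p = 0.502). The other 2 tested probe sets of Vcan differed by 0.42 ± 0.14 and 0.45 ± 0.22 in the same direction (adjusted p = 0.142 and 0.351 over all probe sets). A further 5 lay under the filter, with no signal above 35.8, and with all 8 averaged the difference was 0.15 (adjusted p = 0.813). With the array set as a block the difference was 0.60 (limma, adjusted p = 0.777), so its size was kept and its call was not. The call was also lost without WT replicate 2 (adjusted p = 0.108), WT replicate 3 (0.148) or any KO array (0.0891, 0.149 and 0.119).

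Lumican, a keratan sulfate proteoglycan that binds collagen fibrils, rose in KO with a smaller difference and little scatter. Its signals were 1936, 1751 and 1786 in WT, 2054, 1988 and 2087 in HET, against 2248, 2170 and 2483 in KO. All HET arrays lay above all WT arrays and below all KO arrays, an order without overlap that no other tested member showed and that 37 of the 13028 genes did (0.284%). The KO minus WT difference was 0.33 ± 0.08 (limma, adjusted p = 0.0482). The HET minus WT difference was 0.16 ± 0.08 (adjusted p = 0.444), and KO minus HET was 0.17 ± 0.08 (adjusted p = 0.989). Lum also had the narrowest spread within genotypes of the 45 members (SD 0.075 on the log2 scale). Its difference was 0.34 with the array set as a block (adjusted p = 0.767), and between HET replicate 1 and the other HET arrays it moved by only -0.01. The adjusted p rose above 0.05 when any array other than HET replicate 1 was left out, and was then between 0.0501 and 0.164. Only 1 probe set names Lum.

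**Figure D2:**
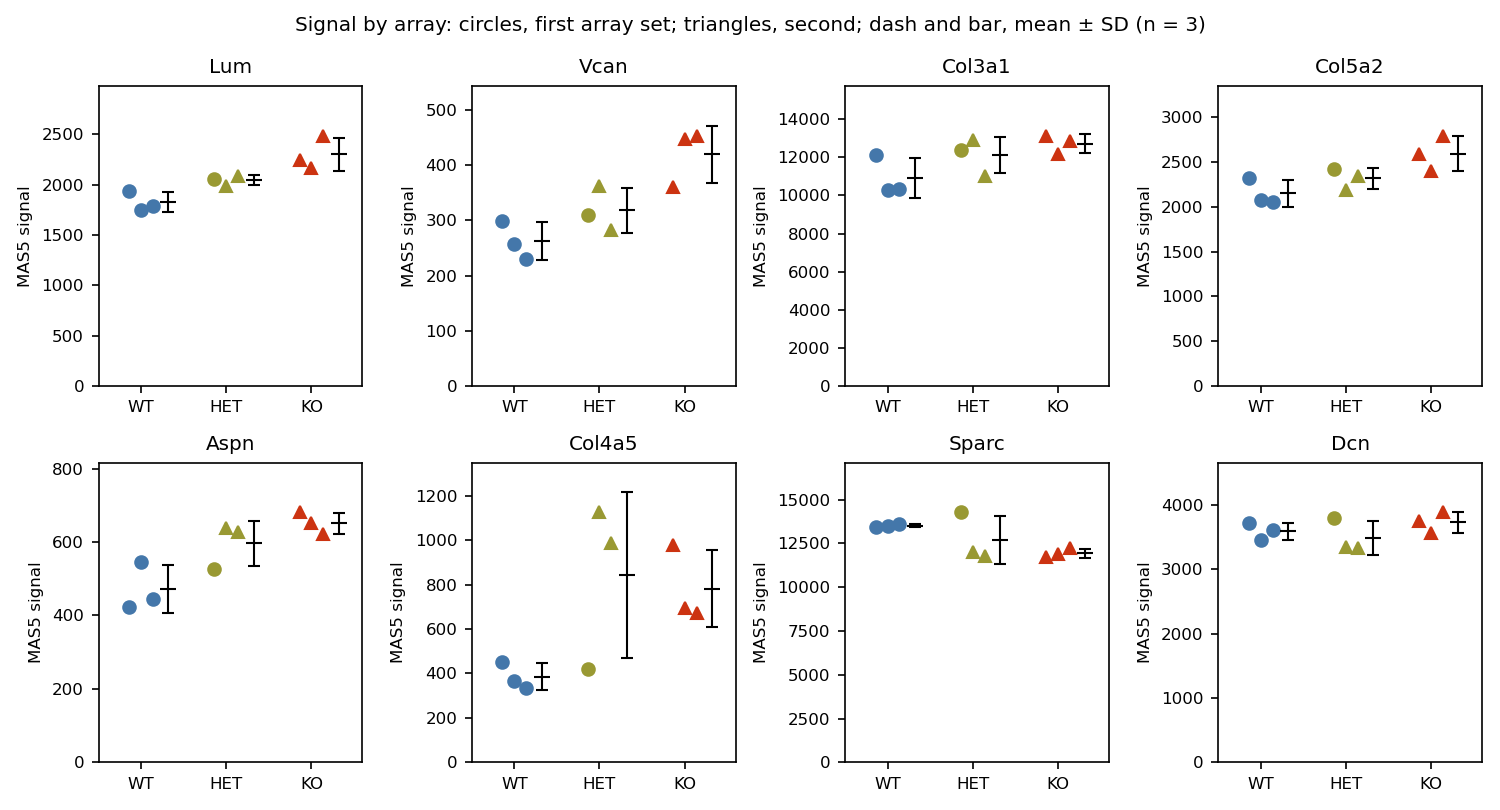
MAS5 signal of 8 members on each array by genotype, with circles for the first and triangles for the second array set and the mean ± SD (n = 3) beside the points. Lum and Vcan rise from WT to KO, Col4a5 and Sparc divide by array set with HET replicate 1 beside the WT arrays, and Dcn overlaps across genotypes.

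The other small leucine-rich proteoglycans did not pass the test, although 6 of the 7 genes of this class lay above 0 in KO. Decorin lies next to Lum on chromosome 10 and binds the same fibrils. Its signals were 3712, 3450 and 3608 in WT, 3797, 3342 and 3338 in HET, against 3752, 3561 and 3882 in KO. These overlapped, with a KO minus WT difference of 0.06 ± 0.07 (adjusted p = 0.759) that was 0.24 with the array set as a block. Its second, dim probe set, with signals of 1.56 to 52.7, gave -0.53 ± 0.46, and the mean of both gave -0.24. Asporin, a relative of decorin that binds TGF-beta, read 422, 547 and 446 in WT, 526, 638 and 627 in HET, against 680, 651 and 623 in KO. KO and WT arrays did not overlap for Aspn, and the difference of 0.46 ± 0.12 missed the threshold (adjusted p = 0.0631). Every array of the second set was above every array of the first for this gene, and the block brought the difference to 0.20. Its second probe set differed by 0.78 ± 0.24 (adjusted p = 0.113 over all probe sets).

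Biglycan differed by 0.07 ± 0.10, fibromodulin by -0.05 ± 0.21, osteoglycin by 0.04 ± 0.09 and Prelp by 0.34 ± 0.20, none of them called. Prelp and Fmod are neighbours on chromosome 1. The second probe set of Ogn gave 0.43 ± 0.13 (adjusted p = 0.115), and that of Prelp -0.19 ± 0.19. With the array set as a block all 7 genes of the class lay above 0, led by Fmod at 0.66 and Bgn at 0.40. Their unadjusted limma p-values were then 0.0465 and 0.00927, and the smallest adjusted p of any member was 0.741.

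Among the fibrillar collagens, 0 of the 9 tested were called between KO and WT and 2 had an unadjusted limma p under 0.05, Col3a1 and Col5a2. These are neighbours on chromosome 1, and their products combine in thin fibrils. Col3a1 read 12125, 10288 and 10315 in WT, 12404, 12896 and 11042 in HET, against 13121, 12151 and 12854 in KO, a difference of 0.22 ± 0.07 (adjusted p = 0.13). The lowest KO array of Col3a1 was barely above the highest WT array. Its second probe set gave 0.52 ± 0.12 (adjusted p = 0.061 over all probe sets). Col5a2 read 2322, 2070 and 2058 in WT, 2421, 2188 and 2346 in HET, against 2593, 2394 and 2790 in KO, a difference of 0.27 ± 0.08 (adjusted p = 0.106). Again KO and WT arrays did not overlap, with HET arrays reaching into both. Both differences were as large with the array set as a block, at 0.28 and 0.36. Without HET replicate 1, Col5a2 was called at the same difference (limma, adjusted p = 0.0444), as were 840 of all genes. Leaving that array out also leaves no array that parts set from genotype.

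Type I collagen is the main stress-bearing collagen. Col1a1 read 5254, 4051 and 4046 in WT, 4735, 4863 and 3525 in HET, against 4590, 4318 and 4893 in KO (0.06 ± 0.12, and 0.25 with the array set as a block). Col1a2 differed by -0.03 ± 0.09, but its second probe set by 0.32 ± 0.10 (adjusted p = 0.111 over all probe sets). WT replicate 1 was the highest WT array for both genes and above every KO array. Col5a1 differed by 0.10 ± 0.12, and by 0.41 with the block. The dim fibrillar genes Col27a1, Col5a3, Col11a1 and Col11a2 lay between -0.25 and 0.01. Col11a1, with the receptor element in its window, read 47.1, 62.2 and 45.0 in WT, 74.1, 58.0 and 62.2 in HET, against 45.6, 43.7 and 43.7 in KO. All its KO arrays were below all its HET arrays, and it was the only member for which that held, with a difference of -0.42 ± 0.25 (adjusted p = 0.989). Its second probe set went the other way, reading 23.2, 32.5 and 6.23 in HET and 38.6, 31.8 and 41.6 in KO (0.61 ± 0.40), and with probe sets averaged KO minus HET was 0.10.

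Of the 7 basement membrane collagens tested, 5 lay above 0 and 0 were called (2 at an unadjusted limma p under 0.05, Col4a5 and Col4a6). The genes of the ubiquitous type IV trimer, Col4a1 and Col4a2, differed between KO and WT by -0.03 ± 0.08 and 0.05 ± 0.09. Their annotated starts lie 21 bp apart on opposite strands. Col4a5 and Col4a6, paired in the same head-to-head way on the X chromosome with starts 1343 bp apart, read higher in KO. Col4a5 signals were 452, 368 and 337 in WT, 419, 1124 and 986 in HET, against 980, 693 and 673 in KO. Every KO array was above every WT array. The arrays also divide by set, with HET replicate 1 among the WT values and HET replicates 2 and 3 above all KO arrays. The difference of 0.98 ± 0.26 was not called (adjusted p = 0.0700), and it was -0.32 with the array set as a block. Without HET replicate 1 it was called (adjusted p = 0.00116), as was HET minus WT at 1.42 (adjusted p = 0.000368). Over all genes 840 and 574 were then called in these 2 comparisons. The second probe set of Col4a5 varied little, from 448 to 596 over all arrays, and differed by 0.15 ± 0.11.

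Col4a6 read 118, 135 and 90.8 in WT, 149, 140 and 147 in HET, against 172, 148 and 153 in KO. HET and KO arrays were all above WT arrays, with a KO minus WT difference of 0.42 ± 0.17 (adjusted p = 0.215) that was 0.48 with the block. Its second probe set gave -0.04 ± 0.24. The multiplexins Col15a1 and Col18a1, basement membrane proteoglycans, went opposite ways. Col15a1 differed by 0.28 ± 0.13 between KO and WT (adjusted p = 0.300) and by 0.33 ± 0.13 between KO and HET, with the KO arrays, at 311, 337 and 332, above all others. Col18a1, the parent of endostatin, differed by -0.16 ± 0.09, with every array of the second set below every array of the first and 0.06 with the block. Col4a4 was dim, from 10.7 to 88.8, and its difference of 0.69 ± 0.45 lay within that scatter.

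**Figure D3:**
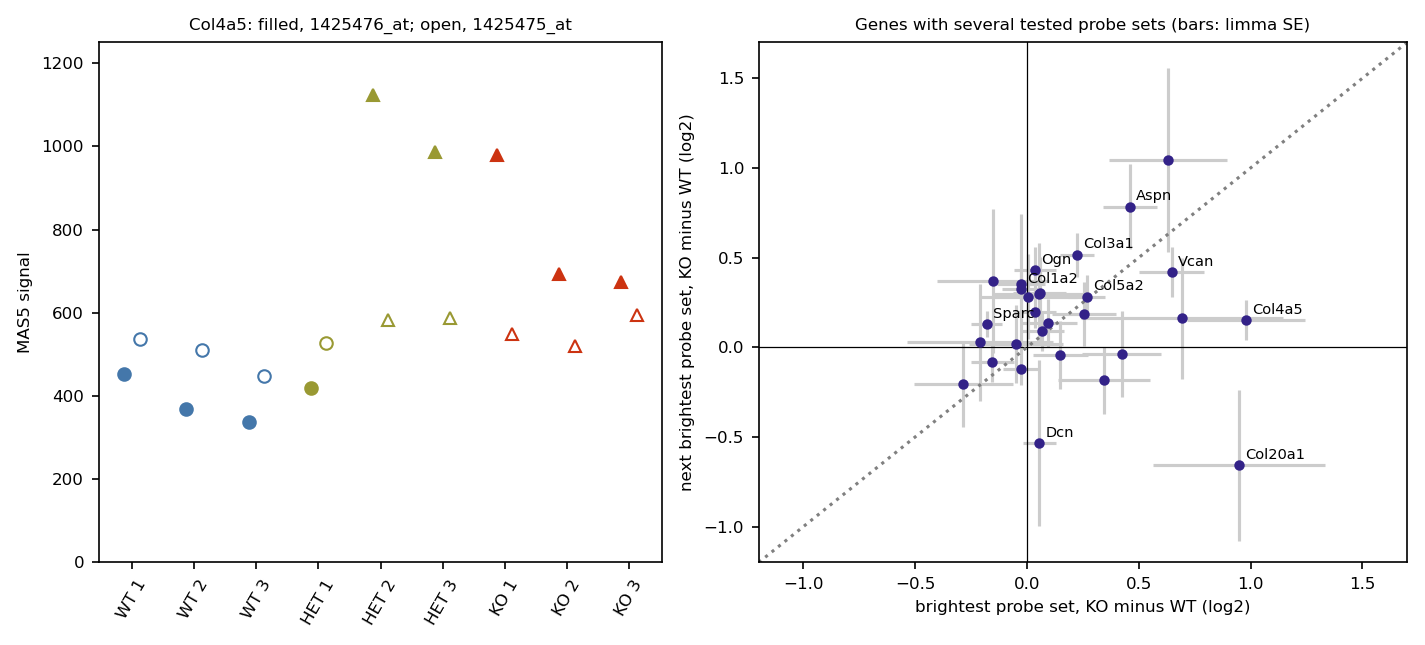
Left, signals of the 2 Col4a5 probe sets on each array, where the filled one reaches 1124 in HET and the open one stays between 448 and 596. Right, KO minus WT difference of the brightest against the next brightest probe set for 29 members with several tested, with limma standard errors and the line of equality; Sparc, Dcn and Col20a1 lie in opposite-sign quadrants.

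Probe sets of a member did not always agree. Of the 45 tested members, 29 had several tested probe sets, and for 13 of these the sign of KO minus WT was not the same in all. Vcan, Col3a1, Col5a2, Aspn and Col4a5 were among the 16 whose probe sets shared a sign. Some of these differences were smaller than their standard errors, as for the brightest probe sets of Col1a2 and Dcn. The share of such genes over the whole array is not given here, and why signs differed was not tested. Each value holds for the probe set that gave it.

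The fibril-associated and network-forming collagens were mostly dim, and 0 of 13 were called (2 had an unadjusted limma p under 0.05, Col20a1 and Col9a1). Col9a1, known from cartilage and from the eye, read 82.8, 42.9 and 57.0 in WT, 50.2, 44.5 and 49.7 in HET, against 139, 79.7 and 90.3 in KO. KO arrays were above all HET arrays, and KO minus HET was 0.86 ± 0.26 (adjusted p = 0.989), whereas WT replicate 1 lay inside the KO range. Col20a1 differed by 0.95 ± 0.39 between KO and WT, with a single WT array at 3.23 and the second probe set at -0.66. Col14a1, which coats fibrils under tension, differed by 0.15 ± 0.12, Col16a1 by 0.21 ± 0.15 and Col12a1 by -0.21 ± 0.33. The 3 bright type VI chains differed by 0.02 ± 0.10 for Col6a1, 0.04 ± 0.09 for Col6a2 and 0.09 ± 0.13 for Col6a3. The blocked values were 0.30, 0.34 and 0.38, not called. Col8a1, a short-chain collagen of vessels and valves, read 24.9, 26.7 and 18.3 in WT and 27.3 to 53.8 in KO, a difference of 0.55 ± 0.34. Col6a4 differed by -0.51 ± 0.50, and Col22a1, Col7a1 and Col8a2 lay between -0.18 and 0.10. Of the 3 remaining collagens tested, Col26a1 differed by 0.59 ± 0.32, Col23a1 by 0.06 ± 0.20 and Col13a1 by -0.38 ± 0.29.

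Sparc, a collagen-binding glycoprotein needed for fibril assembly, was the only member with an unadjusted p under 0.05 that was lower in KO. It read 13466, 13511 and 13590 in WT, 14268, 12027 and 11770 in HET, against 11713, 11873 and 12215 in KO. HET replicate 1 stood with the WT arrays and the other HET arrays with KO. The difference was -0.18 ± 0.07 (adjusted p = 0.175), and 0.08 with the array set as a block. Without HET replicate 1 it was called at the same size (adjusted p = 0.0216), as were 840 of all genes. Its second probe set went the other way, at 0.13 ± 0.07. Periostin, which binds collagen and marks fibroblasts and valves, read 7933, 7730 and 8393 in WT and 8811, 9024 and 8554 in KO. Its difference was 0.13 ± 0.07 (adjusted p = 0.346), and 0.03 with the block. Fibronectin differed by -0.03 ± 0.11.

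The elastic fibre genes varied between arrays of a genotype. Elastin read 2664, 2385 and 1644 in WT, 2729, 2471 and 1493 in HET, against 2409, 1358 and 1760 in KO, so that each genotype held a low and a high array. Its difference of -0.28 ± 0.22 lay within that spread (adjusted p = 0.559). Fibrillin 2, the fetal fibrillin, read 386, 374 and 361 in WT and 410, 553 and 398 in KO, a difference of 0.26 ± 0.14 (adjusted p = 0.384). KO replicate 2 was the highest array of Fbn2 and the lowest of Eln.

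Between heterozygous and wild-type hearts limma called 0 of 45 members, and 4 had an unadjusted p under 0.05 (8.89% beside 11.5% of all genes): Col4a5, Aspn, Col20a1 and Col26a1, all higher. The HET and WT arrays did not overlap for Lum, Col4a6 and Col8a1, all higher in HET, which is 6.67% of the members beside 13.7% of all genes (6.29% higher). The lowest differences by p were those of Col27a1 (-0.37 ± 0.21), Sparc (-0.10 ± 0.07), Col23a1 (-0.28 ± 0.20), Col6a4 (-0.66 ± 0.50) and Fmod (-0.28 ± 0.21). The median of the 45 was -0.02, and 0.15 with the array set as a block. The HET mean lay between the WT and KO means for 19 members (42.2%, beside 44.2% of all genes).

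Between knockout and heterozygous hearts limma called 0 members, with 5 at an unadjusted p under 0.05: Col9a1, Vcan, Col15a1, Fbn2 and Lum, all higher in KO. These are 11.1% of the members beside 4.81% of all genes, and the call rate over all genes was 0.0154%. Arrays did not overlap for Col9a1, Col15a1, Lum and Col11a1 (8.89% beside 10.5%, of which 4.76% higher and 5.73% lower). Col5a3, Col13a1 and Col12a1 were lower by 0.37 to 0.41 with standard errors of 0.29 to 0.33. Of the 45, 33 lay above 0 (73.3%, beside 48.3% of all genes) with a median of 0.09. KO minus HET and KO minus WT share the KO arrays, and HET minus WT and KO minus WT share the WT arrays.

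**Figure D4:**
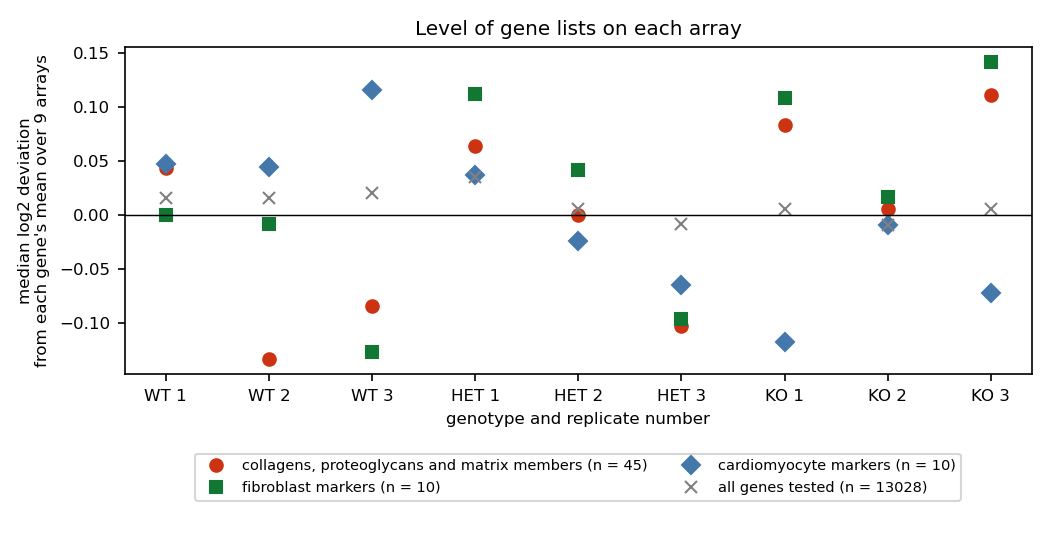
Median log2 deviation from each gene's mean over 9 arrays, for the 45 tested members, 10 fibroblast markers, 10 cardiomyocyte markers and all 13028 genes tested, on each array. Members run from -0.13 to 0.04 in WT and from 0.01 to 0.11 in KO, and the fibroblast markers from -0.13 to 0.00 and from 0.02 to 0.14.

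As a group, the members' levels overlapped between genotypes. The median deviation of the 45 from their means was 0.04, -0.13 and -0.08 in WT, 0.06, -0.00 and -0.10 in HET, against 0.08, 0.01 and 0.11 in KO. WT replicate 1 and HET replicate 1 stood above KO replicate 2 and below the other KO arrays. Fibroblast markers followed a similar range: 7 of the 10 were higher in KO, 0 were called (3 at an unadjusted limma p under 0.05), and their median difference was 0.17. Under the array-set block 9 of these 10 were higher and 1 lower, with a median of 0.30 and 0 called. The smallest p-values among the higher ones were those of Pdgfra (0.48 ± 0.13) and Tcf21 (0.30 ± 0.11), and the 3 lower ones were Gsn (-0.17 ± 0.07), Vim (-0.12 ± 0.06) and Thy1 (-0.20 ± 0.18). Vim and Gsn are the brightest of the list, whose summed signal ran from 21665 to 21691 in WT, 20841 to 22264 in HET, against 20915 to 21322 in KO. The valve and cartilage list had 6 of 10 genes above the filter, all 6 higher in KO, with summed signals of 267 to 410 in WT, 301 to 412 in HET, against 422 to 446 in KO. Under the block 4 of these 6 were higher and 2 lower. Sox9, Scx, Acan, Matn4, Hapln1 and Comp passed the filter, and Tnmd, Cnmd, Chad and Matn1 did not. Pericyte and smooth muscle markers summed to 17238 to 19082 in WT, 19073 to 20255 in HET and 19019 to 21792 in KO, and 6 of 10 were higher. Cardiomyocyte markers were lower for 8 of 10, 6 of them at an unadjusted limma p under 0.05 and 0 called, with a median of -0.15. Under the array-set block 5 were higher and 5 lower, with a median of -0.00. Of 10 epicardial markers 6 were higher and 4 lower, with Tbx18 called higher (0.84 ± 0.17, adjusted p = 0.0320). Of 10 endothelial markers 3 were higher and 7 lower, with the receptor Kdr called lower (-0.74 ± 0.14, adjusted p = 0.0262), and with the block 7 were higher. Of 6 genes on the atrial list 3 were higher and 3 lower, with Nppa called higher (0.24 ± 0.06, limma, adjusted p = 0.0459). Nppa was bright on every one of these ventricular arrays, at 12959 to 16161. For Tbx18 and Kdr the arrays also parted by set, with 0.23 and -0.25 under the block. The part of these lists in the members' differences was not tested.

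With the array set as a block, 38 of the 45 members lay above 0 between KO and WT (84.4%, beside 52.5% of all genes). The median was 0.25, while that of all genes was 0.02. Limma called 0 members (0.00768% of all genes), and 9 had an unadjusted limma p under 0.05, or 20% beside 6.19% of all genes. Within the second set alone, which the blocked KO minus HET value reads, 36 of 45 were above 0 (80%, beside 50.4% of all genes). Their median was 0.11, and that of all genes 0.0015. The sets parted 4 members completely, Col4a5 and Aspn higher and Col18a1 and Sparc lower in the second, which is 8.89% of the members beside 13.0% of all genes (5.37% higher, 7.67% lower). For these 4, as for every other member, array set and genotype cannot be told apart between KO and WT beyond what HET replicate 1 shows.

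Among the lists of genes that act on the members, only Ltbp1 and Lamb1 were called between KO and WT. Beside these lists, 1.62% of all genes tested were called and 17.2% had an unadjusted limma p under 0.05. Of 20 genes of collagen synthesis and folding, 13 were higher in KO and 0 called (3 at an unadjusted limma p under 0.05), led by the prolyl isomerase Ppib (-0.17 ± 0.07) and by Fkbp14 (0.30 ± 0.13). Of 9 genes of procollagen cleavage and cross-linking, 7 were lower and 0 called (0 at an unadjusted limma p under 0.05), with Adamts3 at 0.49 ± 0.25 and the lysyl oxidase relative Loxl1 at 0.14 ± 0.10. That count turned under the block, with 7 higher and 2 lower. Of 17 genes of matrix turnover, 11 were higher and 0 called (1 at an unadjusted limma p under 0.05), with the versican-cleaving protease Adamts5 at -0.52 ± 0.16 (adjusted p = 0.110) and Adamts1 at 0.28 ± 0.14. All arrays of the second set were below those of the first for Adamts5. Of 17 matrix receptors, 11 were higher and 0 called (3 at an unadjusted limma p under 0.05), with the integrin chains Itgb5 at -0.31 ± 0.10 and Itgav at 0.37 ± 0.13.

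Of 17 genes of TGF-beta signalling and matrix-inducing factors, 15 were higher in KO, 6 at an unadjusted p under 0.05, and the median difference was 0.16. Of all genes 48.4% were higher and 17.2% had such a p. Under the block 9 of the 17 were higher and 8 lower, 2 at an unadjusted p under 0.05. Ltbp1, which tethers latent TGF-beta to the matrix, was the 1 called: it read 136, 93.9 and 98.9 in WT, 131, 187 and 139 in HET, against 211, 228 and 173 in KO (0.82 ± 0.19, adjusted p = 0.0446). Every second-set array of Ltbp1 was above every first-set array, and the difference was 0.55 with the block. Its relative Ltbp3 differed by 0.60 ± 0.16 (adjusted p = 0.0747). Of 11 laminins and other basement membrane genes, 7 were higher and Lamb1 was called (0.57 ± 0.14, adjusted p = 0.0483). Lamb1 too was parted by array set, with 0.08 under the block. Among the elastic fibre assembly genes 5 of 9 were higher and 0 called (1 at an unadjusted limma p under 0.05), with Efemp1 at 0.55 ± 0.20 and Fbln1 at 0.20 ± 0.10, and 8 were higher with the block. The other leucine-rich proteoglycans (4 tested, 2 higher) and the other matricellular and hyaluronan genes (12 tested, 7 higher) held 0 calls (0 and 1 at an unadjusted limma p under 0.05), with Ecm2 at -0.26 ± 0.35, Epyc at 0.27 ± 0.40, Tnc at 0.41 ± 0.19 and Sparcl1 at -0.13 ± 0.08.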

How the data were processed

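Ventricular RNA was measured on 9 Affymetrix arrays of 45101 probe sets, 64 of them controls. The authors deposited a linear intensity for each probe set, made with MAS5 per the submitters' processing notes. The mean of each deposited column without its top and bottom 2% was equal between arrays, so the arrays had been scaled but not otherwise normalized. Names came from the platform's annotation (34945 name 1 gene, 932 several), and of those symbols 34741 were found by gene ID in RefSeq GRCm38.p6. Gene accounts rest on log2(signal + 16), the brightest probe set per gene and a filter at the 40th percentile of probe-set means (5.24, a signal of 21.7). This left 13028 genes. The test was limma 3.58.1 under R 4.3.3 (1 mean per genotype over 9 arrays, eBayes with an intensity trend, two-sided), adjusted over all genes and called at an adjusted p under 0.05. Precision is limited by having 3 arrays a genotype.

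The members and lists were chosen with earlier results of these data known. Members named in full were those called, the 5 with the smallest p in each direction of each comparison and the 3 brightest of each role, and for other lists the genes called and otherwise up to 2 with the smallest p between KO and WT. The other members are given by value or range. Scaling, pseudocount, filter, probe-set rule, trend, arrays used, replicate and array-set blocks were varied. The fit was tested on simulated data. Python 3.11.15 and matplotlib 3.10.9 drew the plots.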

Additional observations from a re-analysis of the deposited data

How the results depend on the processing

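Under 21 alternatives, 2787 values were recomputed for the members. Of these, 2562 kept their direction and side of the threshold (or their size), and 186 changed direction. A call was lost by 27 and gained by 12, and 0 called values changed sign. The 2 members called between KO and WT became 0 with arrays shifted to 1 median (over the 34945 named probe sets), with no filter, with probe sets of a gene averaged, with no intensity trend and with the array-set block. They became 1 with a pseudocount of 1, 5 with only the 6 arrays compared, and 0 to 6 when each array was left out in turn (6 without HET replicate 1, 0 without WT replicate 2 or 3 or any KO array). The median member difference between KO and WT was above 0 under all 21 and moved to 0.25 with the array-set block. That between HET and WT ran from -0.09 to 0.15, the last with the array-set block. HET minus WT gave 0 to 2 members called when leaving out 1 array. It gave 2 without HET replicate 1, beside 574 of all genes. Without both HET replicate 1 and WT replicate 3 it gave 1, beside 230 of all genes. That last alternative was chosen after seeing the data. KO minus HET gave 0 members under every alternative. Esrrg was no longer called with the mean of its probe sets (-0.72) or the array-set block (-1.89). The causes were not tested.

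Over all genes, the 211 called between KO and WT became 101 after the median shift, 85 with no filter, 7 with the mean of probe sets, 6 with no trend, 773 with 6 arrays, 1 with the array-set block, 441 without HET replicate 1 and WT replicate 3, and 10 to 840 leaving out 1 array. The replicate block gave 127 genes and 0 members. Deviations of arrays with the same replicate number correlated at -0.04 to 0.05 over genes (9 pairs). Those with different numbers correlated at -0.06 to 0.08 (18 pairs). These values show no pairing by number, but they cannot exclude it. Dim members are the least certain: the 12 tested members under the 60th percentile had a median SD within genotypes of 0.44, the 33 above it 0.14.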
